A study of Mus musculus with 4 samples.

Results

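Killer cell lectin-like receptors of the CD94, NKG2 and related families were described as the 9 genes Klrd1, Klrc1, Klrc2, Klrc3, Klrk1, Klre1, Klri1, Klri2 and Klrg1, which were chosen by symbol from 35798 named genes. All 9 were present in the count table, and all 9 were among the 13822 genes that passed the filter on low counts. The libraries were bulk polyA RNA-seq of mouse Ly49H+ NK cells. Wild-type cells carried the CD45.1 allele and TNFR2 KO cells, which lack the TNF receptor encoded by Tnfrsf1b in the whole donor mouse, carried CD45.2. Both kinds of donor cells were transferred together into the same NSG hosts, and all hosts were infected with murine cytomegalovirus (MCMV). Spleen cells were sorted on day 3.5 (D3.5) as Ly49H+ and CD45.1+ or CD45.2+. The paper describes enrichment of NK cells from spleen by negative selection, but names only sorting for this harvest. NSG mice have no mature T, B or NK cells of their own but keep myeloid cells. Each genotype had 2 libraries, each from pooled spleen of 3 hosts. By the labels, wild-type replicate 1 shared its pool with TNFR2 KO replicate 1, and wild-type replicate 2 with TNFR2 KO replicate 2. There was no uninfected sample. The genotype, the CD45 allele and the sort gate changed together and cannot be told apart here. The labels give no separate experiments for the duplicates. The paper describes a single experiment in duplicate, with pooled spleen of 3 infected mice, and numbers no pools. P-values therefore measure only the spread between these duplicates.

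CD94, the product of Klrd1, is a lectin-like chain that reaches the NK cell surface as a disulphide-linked partner of the NKG2 chains. With NKG2A, encoded by Klrc1, it forms an inhibitory receptor whose cytoplasmic tail holds ITIM motifs that recruit tyrosine phosphatases. With NKG2C (Klrc2) or NKG2E (Klrc3) it forms receptors that signal through the adaptor DAP12, encoded by Tyrobp. All of these recognise Qa-1, the product of H2-T23, which presents signal peptides of classical MHC class I molecules. NKG2D (Klrk1) differs from them: it is a homodimer, binds stress-induced relatives of MHC class I such as the Raet1, H60 and Ulbp1 products, and signals through DAP10 (Hcst) and in mouse also DAP12. KLRE1 pairs with KLRI1 into an inhibitory receptor and with KLRI2 into an activating one. KLRG1 is an inhibitory receptor for cadherins and is widely used as a marker of mature NK cells and of effector T cells.

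Tnfrsf1b, the targeted gene, was at 265 and 268 CPM (counts scaled to a common library size) in the wild-type libraries and at 55.1 and 58.6 CPM in those of TNFR2 KO cells, so the log2-fold change in TNFR2 KO over wild-type was -2.23 (SE 0.0352). Its transcript was lower but present in the TNFR2 KO libraries. Total counts ranged from 32713054 to 39543464 per library. The 10 NK cell markers, none of them one of the 9 receptors, summed to 12233 and 12184 CPM (by total counts) in wild-type and to 21870 and 21760 in TNFR2 KO, and all 10 were higher in TNFR2 KO. Klra8 and Klrb1c among them also belong to the lectin receptor lists used further on. Most markers of myeloid cells moved the other way. Of 20 macrophage markers 19 were lower and 1, Ccr2, was higher, and their sums were 2500 and 2481 against 961 and 939. All 12 neutrophil markers were lower (955 and 978 against 86.2 and 82.8), as were all 9 basophil and mast cell markers (1369 and 1363 against 92.6 and 91.7). The 11 T cell markers summed to 1533 and 1514 in wild-type and to 1379 and 1409 in TNFR2 KO, with 2 higher, 5 lower and 4 not passing. The summed dendritic cell markers were at or under 14.2 CPM, and the B cell markers Cd79a and Ms4a1 had at most 7 counts in any library. Of the B cell markers that could be tested, Cd22 rose from 12.4 and 11.6 CPM to 23.1 and 22.1 CPM (log2-fold change 0.91) and Cd79b, at 3.08 and 3.01 CPM against 1.96 and 1.90 CPM, fell. In bulk RNA, fewer NK cells in a library and less of a transcript per NK cell cannot be told apart, and the part of these markers in the results on the 9 receptors was not tested. Values are on the trimmed-mean (TMM) scale over all genes unless said otherwise, and the changes of the 9 receptors are also given on a scale set by 36 NK lineage genes, which leaves out the 9 receptors, the other lectin receptors and the adaptors.

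Of the 9 genes, 8 lie side by side on chromosome 6. In the GENCODE M21 annotation of the GRCm38 build, Klre1 (chr6:129577905-129585827) and Klrd1 (chr6:129591782-129598775) are on the plus strand, followed on the minus strand by Klrk1 (chr6:129610323-129623864), Klrc3 (chr6:129639064-129643337), Klrc2 (chr6:129647496-129660689), Klrc1 (chr6:129666015-129678973), Klri1 (chr6:129697218-129717132) and Klri2 (chr6:129729041-129740484). No other protein-coding gene lies among them. Klrg1 (chr6:122270596-122282882, minus strand) is 7.3 Mb away.

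Klrc1 differs from Klrc2 and Klrc3 at the start of the coding sequence, while the ends are nearly the same in all of them. Both bear on how reads could be divided among them. The first 60 coding bases, which encode the start of the cytoplasmic tail, are shown 5′ to 3′ on the coding strand, with capitals where a base differs from the one at the same place in Klrc1. Each stretch lies in 1 coding exon.
Klrc1, chr6:129678851-129678910: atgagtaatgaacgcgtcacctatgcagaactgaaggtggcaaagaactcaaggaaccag
Klrc2, chr6:129660497-129660556: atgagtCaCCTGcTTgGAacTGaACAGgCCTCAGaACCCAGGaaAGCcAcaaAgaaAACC
Klrc3, chr6:129643229-129643288: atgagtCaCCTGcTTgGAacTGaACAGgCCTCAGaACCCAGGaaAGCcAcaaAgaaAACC
Klrc2 and Klrc3 each differed from Klrc1 at 37 of these 60 positions and were identical to each other. The last 60 coding bases before the stop codon, in the exon that ends the extracellular lectin-like domain, show the opposite.
Klrc1, chr6:129674862-129674921: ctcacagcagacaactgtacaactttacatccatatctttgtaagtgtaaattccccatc
Klrc2, chr6:129656374-129656433: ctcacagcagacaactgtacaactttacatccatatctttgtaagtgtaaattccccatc
Klrc3, chr6:129639088-129639147: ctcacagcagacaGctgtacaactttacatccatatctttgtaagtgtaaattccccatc
Klrc1 and Klrc2 were identical over this stretch and Klrc3 differed at 1 base. Over the whole coding sequence Klrc2 and Klrc3 were identical in 88.5% of aligned columns, Klrc1 and Klrc2 in 81.0%, Klrc1 and Klrc3 in 77.5% and Klri1 and Klri2 in 77.5%.

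The same overlap was visible in the deposited values. The table holds estimated counts, and those of Klrd1, Klrk1 and Klrg1 were whole numbers in 4 of 4 libraries, within 0.001. Those of Klrc1, Klrc2 and Klrc3 were not whole in any library, nor was the sum of any pair of them, but the sum of the trio was whole in 4 of 4 libraries, at 8010 and 7673 in wild-type and 17120 and 13183 in TNFR2 KO. Klri1 and Klri2 likewise summed to whole counts, 8853 and 8271 in wild-type and 13753 and 11392 in TNFR2 KO. Klre1 also had counts that were not whole in any library, and it belongs to neither group. Counts of shared reads were divided within the Klrc trio and the Klri pair, and the level of a single gene in them is less certain than its group's sum. Of the distinct 31-base stretches in its annotated transcripts, Klrc1 shared 53.1% with another gene, Klrc3 53.4%, Klrc2 21.6%, Klri1 15.3% and Klri2 7.6%. For Klrc1 the partner was mostly Klrc2, which held 49.6% of its stretches. Klrd1, Klrk1 and Klrg1 shared 0.0%.

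**Figure D1:**
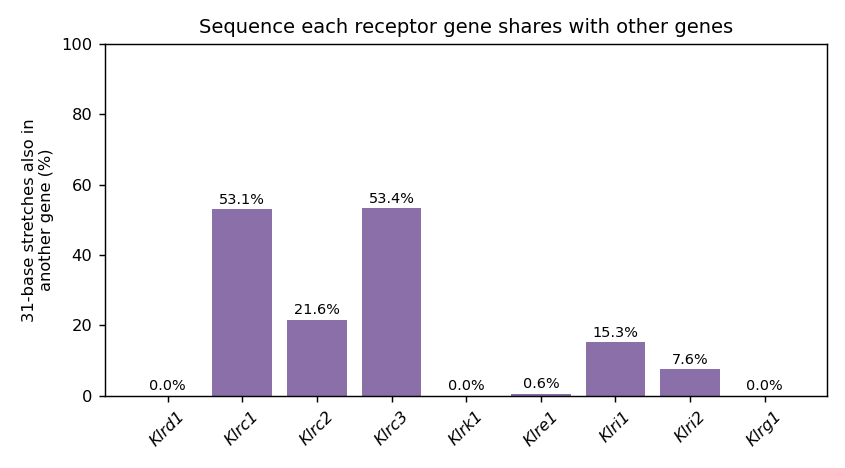
Share of the distinct 31-base stretches of each receptor gene's annotated transcripts that also occur in a transcript of another gene, in percent, 1 bar per gene. Klrc1 at 53.1% and Klrc3 at 53.4% stand highest, and Klrd1, Klrk1 and Klrg1 are at 0.0%.

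The question was whether NK cells lacking TNFR2 expressed these receptors at another level than wild-type cells after MCMV infection. All 9 genes were higher in TNFR2 KO at an adjusted p below 0.05, a direction and threshold that 24.2% of all tested genes met, while 26.2% were lower. Klrd1, Klrc1 and Klrc2, 3 of the 9, also passed a log2-fold change of 1, as 1.56% of all tested genes did in that direction and 11.8% in the other. Both TNFR2 KO libraries were above both wild-type libraries for 9 of 9 genes, against 36.4% of all tested genes. The median log2-fold change of the 9 was 0.81, from 0.63 to 1.07, beside -0.003 over all tested genes. The 10 NK cell markers had a median of 0.79, with 10 higher and 3 past both thresholds. A rise of this size was therefore not particular to the 9 receptors. Summed over the 9 genes, expression was 1439 and 1409 CPM in wild-type and 2613 and 2564 CPM in TNFR2 KO. Counts behind a gene ranged from 442 for Klri1 to 25570 for Klrk1, and the largest SD within a genotype was 9.6% of the mean.

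**Figure D2:**
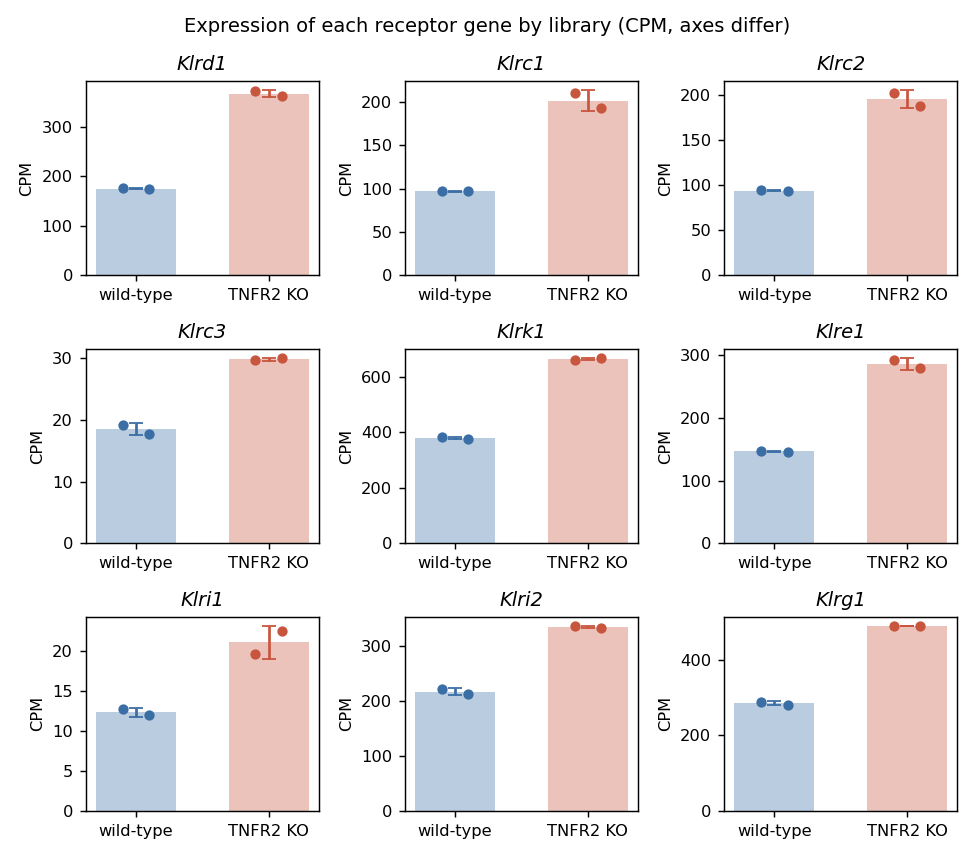
TMM-scaled expression in CPM of each receptor gene, with a point per library, a bar for the mean and an error bar of 1 SD (n = 2); the vertical axes start at 0 and differ between panels. In each of the 9 panels both TNFR2 KO points lie above both wild-type points, and Klri1, at 19.7 and 22.6 CPM, has the widest spread among TNFR2 KO libraries relative to its mean.

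Klrd1, the chain shared by the CD94/NKG2 receptors, showed the largest change of the 9. It was at 176 and 174 CPM in wild-type and at 372 and 362 CPM in TNFR2 KO, so the genotypes did not overlap and duplicates lay close together. The log2-fold change was 1.07 (SE 0.0274), with an adjusted p of 8.78e-12 by edgeR's quasi-likelihood test. Its rank was 232 from the top among the log2-fold changes of the 13822 tested genes.

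Both the inhibitory and the activating NKG2 partner rose with it. Klrc1, encoding inhibitory NKG2A, was at 97.6 and 96.8 CPM in wild-type and at 210 and 193 CPM in TNFR2 KO, which gave a log2-fold change of 1.05 (SE 0.0404, edgeR adjusted p = 4.48e-10). Klrc2, encoding activating NKG2C, was at 94.3 and 93.5 CPM in wild-type and at 202 and 188 CPM in TNFR2 KO, which gave a log2-fold change of 1.06 (SE 0.0377, edgeR adjusted p = 2.23e-10). For both genes TNFR2 KO replicate 1 was the higher of its duplicates. Klrc3, encoding NKG2E, was the lowest of the trio, at 19.2 and 17.8 CPM in wild-type compared with 29.7 and 30 CPM in TNFR2 KO, with a log2-fold change of 0.69 (SE 0.0623, edgeR adjusted p = 1.52e-06). With the trio summed, so that the division of shared reads no longer mattered, the log2-fold change was 1.03. The call of Klrc1 and Klrc2 past the fold threshold was narrow: without TNFR2 KO replicate 1 the log2-fold change of Klrc1 was 0.9999, and scaled by library size alone it was 0.99, with Klrc2 at 0.997 and Klrd1 at 1.01.

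The ratios among the chains of these receptors were compared library by library. Klrc1 counts over Klrc2 counts gave 1.04 in each of the wild-type libraries and 1.04 and 1.03 in TNFR2 KO. Klrd1 over the Klrc trio gave 0.833 and 0.837 in wild-type and 0.841 and 0.881 in TNFR2 KO, both higher in TNFR2 KO but by less than the spread between its duplicates. Klrc3 over Klrc1 was 0.196 and 0.183 in wild-type and 0.141 and 0.155 in TNFR2 KO, where the genotypes did not overlap. The ratios were given no test, since an exact permutation test of 2 libraries against 2 cannot give a two-sided p below 0.333, and those within the Klrc trio carry the uncertainty of the divided reads.

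NKG2D is made by Klrk1, the receptor gene with the most counts. It was at 383 and 376 CPM in wild-type and at 661 and 667 CPM in TNFR2 KO, 1.75-fold higher, with a log2-fold change of 0.81 (SE 0.0241, edgeR adjusted p = 4.15e-11). Its duplicates differed far less than its genotypes, yet its change was smaller than that of CD94: Klrk1 over Klrd1 was 2.18 and 2.16 in wild-type and 1.78 and 1.84 in TNFR2 KO. Hcst, encoding the DAP10 adaptor of NKG2D, was at 22.2 and 23.3 CPM in wild-type and at 44.3 and 41.9 CPM in TNFR2 KO. Its log2-fold change was 0.92 (SE 0.0571, edgeR adjusted p = 4.48e-08). Tyrobp, the DAP12 adaptor, was at 390 and 400 CPM against 734 and 687 CPM, a log2-fold change of 0.85 (SE 0.0317). Adaptor and receptor therefore rose to a similar degree, and Klrk1 over Hcst, at 17.2 and 16.1 in wild-type and 14.9 and 15.9 in TNFR2 KO, shifted by little beyond the spread between duplicates. Tyrobp is also expressed by myeloid cells, whose markers were lower in TNFR2 KO.

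Klre1, the partner chain of both KLRI proteins, rose almost as much as Klrd1. It was at 147 and 146 CPM in wild-type and at 293 and 280 CPM in TNFR2 KO, which gave a log2-fold change of 0.97 (SE 0.0306, edgeR adjusted p = 7.08e-11). Without TNFR2 KO replicate 2 it was 1.01, so that 4 genes passed both thresholds. Klri2, whose protein joins Klre1 in an activating receptor, was at 221 and 212 CPM against 336 and 333 CPM, a log2-fold change of 0.63 (SE 0.028), the smallest of the 9. Klri1, whose protein joins it in an inhibitory one, was at 12.8 and 12.0 CPM against 19.7 and 22.6 CPM, a log2-fold change of 0.77 (SE 0.0886), with the widest error of the 9. The KLRI chains did not differ from each other in their change beyond the spread: Klri1 over Klri2 was 0.0581 and 0.0564 in wild-type and 0.0587 and 0.0678 in TNFR2 KO, and their summed counts gave a log2-fold change of 0.64.

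Klrg1, the cadherin receptor outside the cluster, moved with the others. It was at 289 and 281 CPM in wild-type and at 489 and 488 CPM in TNFR2 KO, which gave a log2-fold change of 0.78 (SE 0.0256, edgeR adjusted p = 1.10e-10). Since KLRG1 marks mature NK cells, 9 late and 9 early maturation genes were set beside it, of which Tbx21, S1pr5 and Eomes are also among the NK lineage genes used for scaling. Of the late genes 8 rose and 1 fell. Among them Itgam (CD11b) was at 368 and 370 CPM against 707 and 706, with a log2-fold change of 0.94. The sialophorin gene Spn rose by 0.35 and the chymase gene Cma1 by 1.69. Zeb2, a transcription factor of terminal maturation, fell by 0.58, and the part of myeloid cells in that fall was not tested. Of the early genes 4 rose and 5 fell. Eomes, a T-box factor of NK cells, rose by 0.69, the chemokine receptor gene Cxcr3 rose by 0.18, and Kit, the stem cell factor receptor also made by mast cells and progenitors, fell by 2.17. On the NK lineage scale 4 of the late genes were higher and 5 lower, with Spn at -0.21 and Cxcr3 at -0.38, and 1 early gene was higher and 8 were lower.

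**Figure D3:**
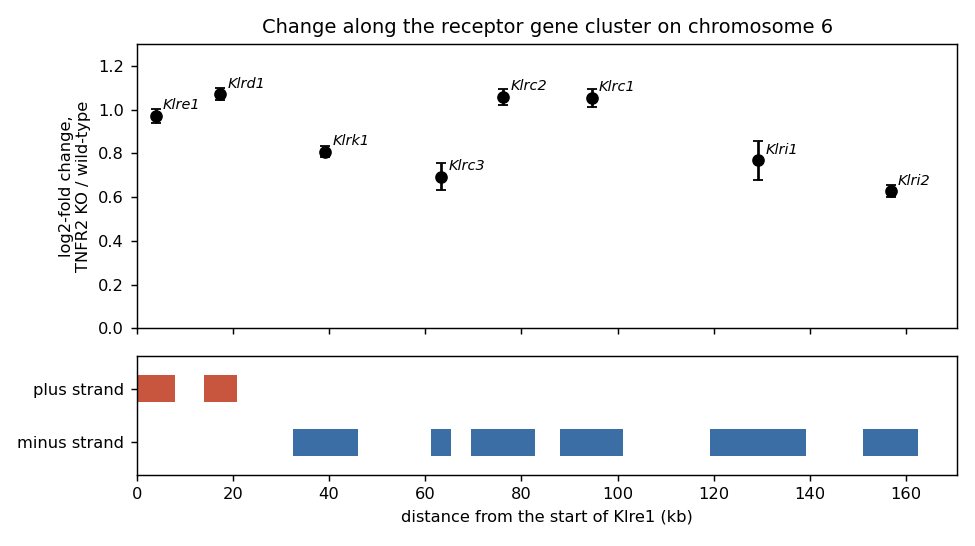
Log2-fold change in TNFR2 KO over wild-type (± SE, n = 2 libraries per genotype) of the 8 clustered receptor genes against the distance in kb from the start of Klre1, with gene bodies drawn to scale by strand below. The values lie between 0.63 and 1.07, with Klrd1, Klrc2 and Klrc1 highest and Klri2, at the far end, lowest.

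Position within the cluster did not order the changes. Klrc3, at 0.69, lies between Klrk1 at 0.81 and Klrc2 at 1.06, and Klrg1, 7.3 Mb away at 0.78, fell within the range of the clustered genes. Ratios of same-numbered libraries, which the labels place in the same pool, gave the same picture. They use the same libraries as the fit and are not a further replication. Within pool 1 the log2 ratios of TNFR2 KO over wild-type ran from 0.61 for Klri2 to 1.11 for Klrc1, within pool 2 from 0.65 for Klri2 to 1.06 for Klrd1, and the largest gap between the pools was 0.29, for Klri1.

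On the NK lineage scale the differences were smaller. That scaling lowers every gene by nearly the same amount. It moved the median of all tested genes to -0.56 and that of the 9 receptors to 0.25. The distance of the receptors above the median gene is fixed by this construction and is not a result. All 9 were still positive, and 8 of 9 kept an adjusted p below 0.05, but none reached a log2-fold change of 1. That direction and threshold was then met by 2.2% of all tested genes, a share that this scaling itself lowers. Klrd1 was at 0.51, Klrc2 and Klrc1 at 0.50, Klre1 at 0.41, Klrk1 at 0.25, Klrg1 at 0.22 and Klri1 at 0.21. Klri2 was at 0.07 (edgeR adjusted p = 0.0357), and Klrc3 at 0.13 (SE 0.0615) no longer passed, with an edgeR adjusted p of 0.0627. Of the 36 NK lineage genes themselves, 31 were higher in TNFR2 KO on the TMM scale, and 16 were higher and 15 lower on the NK lineage scale. Of the 10 NK cell markers, most of which are among those 36, 7 were higher and 2 lower on that scale. Their median there was 0.24, beside the 0.25 of the 9 receptors.

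**Figure D4:**
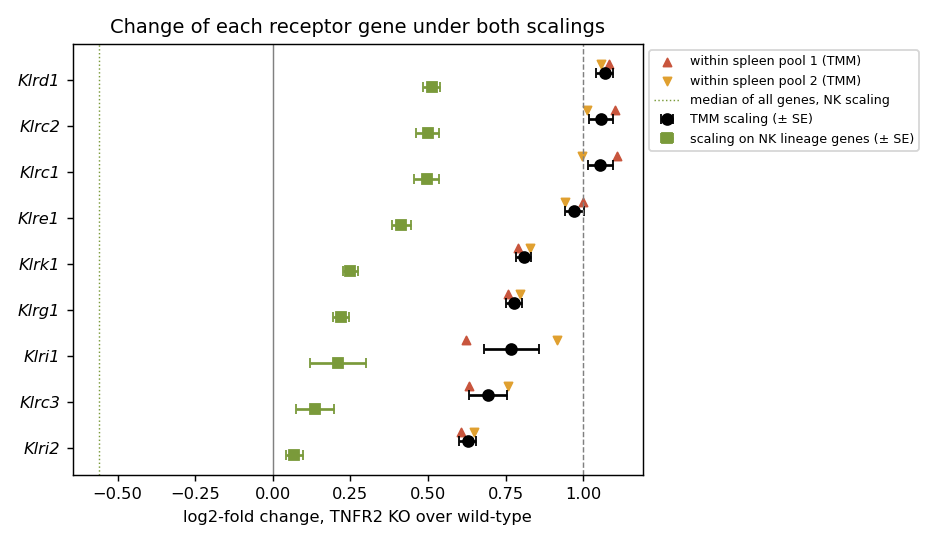
Log2-fold change in TNFR2 KO over wild-type of each receptor gene, with black points for TMM scaling and green squares for scaling on NK lineage genes (both ± SE) and triangles for the ratio within each spleen pool; lines mark 0, the fold threshold at 1 and the median of all genes on the NK lineage scale at -0.56. All 9 genes lie right of 0 on both scales, from 0.63 to 1.07 and from 0.07 to 0.51.

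Levels of different genes were compared per kb of mean protein-coding transcript length. In wild-type the means were 219 CPM per kb for Klrd1, 207 for Klrk1, 202 for Klrg1, 113 for Klre1, 93.3 for Klrc1, 72.4 for Klrc2, 55.3 for Klri2, 25.9 for Klrc3 and 14.8 for Klri1. Klrk1, at 209 and 206, and Klrg1, at 205 and 199, did not overlap but differed by little more than the larger SD of 4.10 CPM per kb, and every other pair of neighbours was farther apart than its duplicates. In TNFR2 KO the order was the same, from 459 CPM per kb for Klrd1 down to 25.2 for Klri1. The mRNA of the shared chain CD94 was thus the most abundant per kb, above NKG2A, NKG2C and NKG2E. The order depends on which transcripts are made: with the longest annotated transcript in place of the mean, the wild-type mean was 190 for Klrd1, 116 for Klrk1, 60.7 for Klre1, 49.0 for Klrc1 and 29.5 for Klrc2, and Klrg1 then stood above Klrd1.

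A list of 31 partner genes (adaptors, ligands, phosphatases, kinases and scaffolds) was set beside the receptors. Of the 22 tested, 13 rose, 7 fell and 2, Ptpn11 and Vav1, did not pass, with a median log2-fold change of 0.14, and -0.42 on the NK lineage scale. The ligand gene H2-T23 was at 335 and 339 CPM in wild-type and at 511 and 519 CPM in TNFR2 KO, which gave a log2-fold change of 0.61 (SE 0.0246), which on the NK lineage scale was 0.05 and no longer passed. Of the NKG2D ligands, Ulbp1 was at 23.6 and 23.2 CPM against 27.5 and 27.0 CPM (log2-fold change 0.22), and H60b, named because only 2 of 9 such genes were tested, was under 1 CPM in all libraries and fell by 3.18. Cdh1, which encodes the KLRG1 ligand E-cadherin and is also expressed by mast cells and some macrophages, was at 22 and 19.4 CPM in wild-type and at 1.01 and 1.25 CPM in TNFR2 KO, which gave a log2-fold change of -4.20 (SE 0.144; -4.76 on the NK lineage scale), the largest among the partners.

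Among the genes that carry the receptors' signals, the phosphatases of the inhibitory tails differed from each other. Ptpn6, encoding SHP-1, was at 259 and 267 CPM in wild-type and at 180 and 177 CPM in TNFR2 KO. Its log2-fold change was -0.56 (SE 0.029, edgeR adjusted p = 8.58e-09), and -1.12 on the NK lineage scale, so it fell while Klrc1 and Klrg1 rose. Most myeloid markers were also lower in TNFR2 KO, and the part of myeloid cells in the fall of Ptpn6 was not tested. Inpp5d, encoding the lipid phosphatase SHIP-1, was at 259 and 256 CPM against 283 and 290 CPM, a log2-fold change of 0.15, and -0.40 on the NK lineage scale. Ptpn11, encoding SHP-2, had a log2-fold change of 0.04 that did not pass (edgeR adjusted p = 0.416). Of 13 kinases and scaffolds of the activating side 8 rose and 4 fell, none past the fold threshold. The Src-family kinase genes Lck and Fyn, the most abundant of them, each had a log2-fold change of 0.31, and -0.24 and -0.25 on the NK lineage scale. The adaptor gene Lat2 rose most, by 0.65, and the phospholipase gene Plcg1 fell most, by 0.37. On the NK lineage scale 3 partners were higher (Hcst, Tyrobp and Lat2) and 18 lower.

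The other lectin receptors of the NK gene complex were the closest comparison. Of 11 Ly49 (Klra) genes tested 8 rose, 6 of them past both thresholds, and 2 fell, with a median log2-fold change of 1.15 (0.59 on the NK lineage scale). Klra8, which encodes the Ly49H receptor used for the sort, was at 313 and 316 CPM in wild-type and at 762 and 725 CPM in TNFR2 KO (log2-fold change 1.24, and 0.68 on the NK lineage scale), and Klra7 rose by 1.18. The Ly49 genes spread far more widely than the 9 receptors, from 1.64 for Klra5 to -3.13 for Klra2. Klra2 was at 24.8 and 24.7 CPM in wild-type and at 2.95 and 2.68 CPM in TNFR2 KO. The other gene that fell was Klra17, at -1.99, and the lowest of the rest was Klra10 at 0.10, which did not pass. Most myeloid markers were also lower in TNFR2 KO, and the part of myeloid cells in these 2 falls was not tested. Of 10 tested NKR-P1, Clec2 and Cd69 genes 6 rose and 3 fell. Klrb1c, encoding NK1.1, rose by 1.49 (0.93 on the NK lineage scale) and Klrb1a by 1.70, the ligand gene Clec2d had a log2-fold change of 0.41, and Clec2g, under 1 CPM, fell by 2.27. Over both lists 14 of 21 rose and 5 fell (3 without either wild-type library or without TNFR2 KO replicate 1), with 10 higher and 4 lower past both thresholds (2 lower without wild-type replicate 1) and a median log2-fold change of 0.84, beside the 0.81 of the 9 receptors (0.28 beside 0.25 on the NK lineage scale). Many Ly49 genes are close copies of each other, so single values among them may carry an uncertainty like that of the Klrc genes. Shared sequence was not measured for the Ly49 genes.

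**Figure D5:**
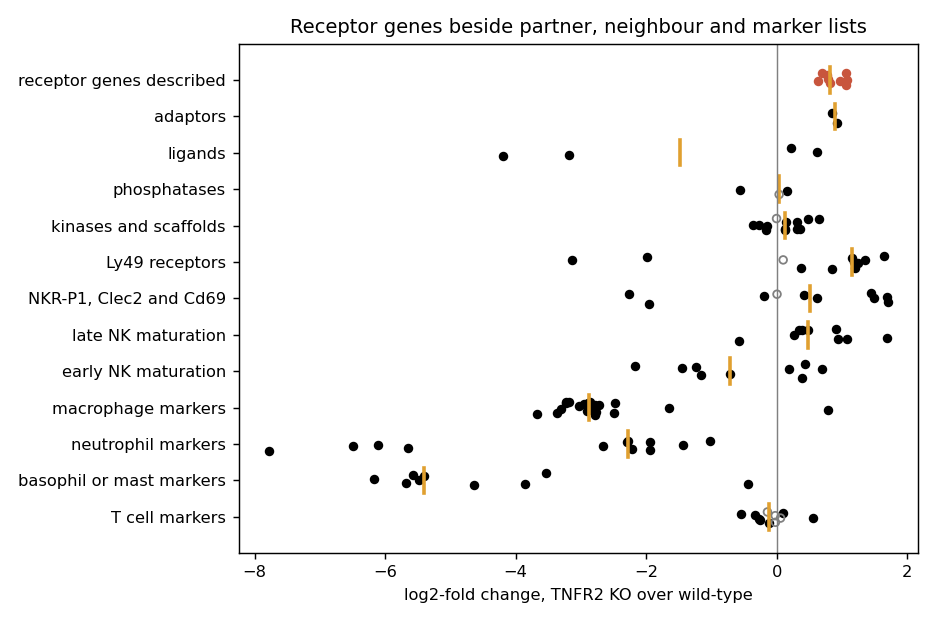
Log2-fold change in TNFR2 KO over wild-type for each tested gene of the 9 receptors (red) and of the partner, lectin receptor, maturation and marker lists, with filled points for an adjusted p below 0.05, open points for the others and an orange bar at each list's median; vertical scatter within a row has no meaning. The 9 receptors span 0.63 to 1.07, the Ly49 genes -3.13 to 1.64, and the macrophage, neutrophil and basophil or mast cell medians lie at -2.88, -2.29 and -5.41.

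Outside the lists, the genes whose profile over the 4 libraries lay nearest to the median profile of the 9 receptors, by Euclidean distance of centred log2 CPM among 4388 genes of at least 50 CPM, were Adamts14, Mxd4, Gm46223, Ahnak and Gpc1, at distances of 0.0285 to 0.0475. Adamts14, which encodes a procollagen-processing protease, was at 219 and 217 CPM in wild-type and 379 and 391 CPM in TNFR2 KO, and Ahnak, which encodes a very large scaffold protein, was at 651 and 628 against 1130 and 1130 CPM. Of the 9 receptors, Klrk1 lay nearest to that profile, at 0.0436, and Klrc1 farthest, at 0.251.

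Because the 9 genes moved together, the 250 bases before their annotated RefSeq starts (GRCm38.p6) were searched on both strands for the letters TGTGGT of RUNX factors, GGTGTG of T-box factors and GGGANTTTC of NF-kB. Sequences were at hand for 6 of the 9 genes, in 8 windows, and not for Klrd1, Klri2 or Klrg1. TGTGGT stood in 6 of the 8 windows, which belong to 5 of these 6 genes, and in 14.0% of 32851 windows of all genes. The Klrc2 windows overlap each other and hold the same matches. Klri1 had none. Not all windows lie before the GENCODE starts given above. Those of Klre1 lie wholly within the GENCODE gene, and those of Klrc2 and Klrc3 partly within it. The matches of Klre1 and Klrc2 therefore fall inside the GENCODE genes. So does the Klrc3 match 49 bases before its RefSeq start, but not the match at 76 bases. The windows of Klrc1, Klrk1 and Klri1 lie directly before the GENCODE starts. GGTGTG and GGGANTTTC stood in none of the 8, and in 16.3% and 0.941% of all windows. The windows of Klrc1 and Klrk1, an inhibitory and an activating receptor gene, are shown on the strand of the gene, with the match or its reverse complement in capitals.
Klrc1, chr6:129678974-129679223, minus strand: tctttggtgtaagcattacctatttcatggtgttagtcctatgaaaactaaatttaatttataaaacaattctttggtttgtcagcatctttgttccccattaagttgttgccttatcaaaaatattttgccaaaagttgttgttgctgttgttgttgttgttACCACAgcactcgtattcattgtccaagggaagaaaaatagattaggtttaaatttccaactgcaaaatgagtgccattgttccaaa
Klrk1, chr6:129623865-129624114, minus strand: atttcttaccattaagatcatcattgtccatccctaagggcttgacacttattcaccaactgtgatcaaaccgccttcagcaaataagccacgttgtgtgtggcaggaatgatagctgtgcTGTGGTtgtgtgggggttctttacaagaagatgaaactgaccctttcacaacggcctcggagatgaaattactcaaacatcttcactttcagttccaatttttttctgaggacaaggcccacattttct
The windows of Klrc2 and Klrc3 were identical in 98.0% of aligned columns, while Klrc1 and Klrc2 were identical in 47.1%, within the range of the pairs other than Klrc2 and Klrc3, the lowest of which was 44.0%. A match of letters is not a measured site.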

How the data were processed

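The authors trimmed the reads with Trimmomatic 1.4 and quantified them with kallisto 0.46.1 against mm10, per the labels and the study's methods, and summarised them to genes with tximport. The table deposited by the authors holds these estimated counts per gene, not normalized, which were rounded here. The row that names no gene (0.0559% to 0.0728% of counts) was left out. Counts were tested in R 4.3.3 with edgeR 4.0.16 (filterByExpr, TMM, glmQLFit and glmQLFTest, genotype only, all 4 libraries), in place of the study's DESeq2, which is an alternative (version 1.42.0). Benjamini-Hochberg adjustment ran over all 13822 tested genes. Thresholds were 0.05 for the adjusted p and 1 for the size of the log2-fold change. The SE is the log2-fold change over the root of the F statistic. CPM are TMM-scaled except marker sums, which use total counts. Alternatives were other scalings, filters, a pool term, leaving out each library, and summed Klrc and Klri counts.

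The labels say that libraries of the same number came from the same pooled spleen, which the paper does not state. The deviations of same-numbered libraries correlated across genes by 0.0487. Duplicates differed by more than sampling noise (mean chi-square per gene 3.29 and 3.49). The biological coefficient of variation was 3.33%. The fit was tested on simulated data. Positions, lengths and coding sequences come from GENCODE M21 (GRCm38), upstream sequences from RefSeq (GRCm38.p6), and alignments from Biopython.

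The members, lists and tests were chosen with earlier results of these data known, and the motifs after the values were seen. Named genes were the members, Tnfrsf1b, Hcst, Tyrobp, H2-T23, Ptpn6 and Inpp5d, the 2 most abundant genes and the largest significant rise and fall of each list, and the 5 genes most like the members. Ptpn11, Vav1, H60b, Cd79a, Ms4a1, Klra10 and Klra17 were named after their values were seen.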

Additional observations from a re-analysis of the deposited data

How the results depend on the processing

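Over 112 values of the 9 receptors under the alternatives, 112 kept their direction and 111 their side of an adjusted p of 0.05, the exception being Klrc3 on the NK lineage scale (0.13). The number of receptors past both thresholds was 3 with TMM, 1 with library size alone and 0 on the NK lineage scale. With a term for the spleen pool (the replicate block), 9 receptors stayed higher and 3 past both thresholds, the totals over all genes were 3414 higher and 3674 lower, and no call on the 9 receptors changed. Leaving out 1 library gave 2 to 4 receptors past both thresholds, 3 to 5 lower genes among the other lectin receptors at an adjusted p below 0.05 (3 without wild-type replicate 1, wild-type replicate 2 or TNFR2 KO replicate 1), and 2 to 4 past both (2 without wild-type replicate 1). The NK lineage scale moved most counts at an adjusted p below 0.05. Partners went from 13 to 3 higher and from 7 to 18 lower. Other lectin receptors went from 5 to 9 lower, and from 10 to 3 higher past both thresholds. Late maturation genes went from 8 to 4 higher and from 1 to 5 lower, and past both from 2 to 1 higher and from 0 to 1 lower. Early genes went from 4 to 1 higher and from 5 to 8 lower. All genes went from 3341 to 304 higher and from 3624 to 11123 lower, and past both from 215 to 54 higher and from 1627 to 2675 lower. On that scale Inpp5d was at -0.40, Ulbp1 at -0.34, Lck at -0.24, Fyn at -0.25, Clec2d at -0.15, Spn at -0.21 and Cxcr3 at -0.38, each reversed from a rise. A mean of at least 10 CPM tests fewer genes. It gave 1 lower partner past both thresholds, 2 lower other lectin receptors (1 past both), 3 lower early genes (2 past both), and 56 higher and 424 lower of all genes past both. DESeq2 gave 3 lower other lectin receptors. The cause of these changes was otherwise not tested. With the longest transcript, wild-type levels per kb were 190 for Klrd1, 49.0 for Klrc1, 29.5 for Klrc2, 116 for Klrk1 and 60.7 for Klre1. The maturation lists were put through the alternatives after the data were seen. Genes at under 1 CPM, such as H60b and Clec2g, rest on few counts.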
